A study of Mus musculus with 2 samples.

Results

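The 8 genes Tmcc2, Trim58, Xpo7, Car1, Car2, Ube2o, Isg20 and Hemgn belong to the terminal maturation of red cells, and chromatin accessibility at their loci was taken from the peak and footprint lists of mouse embryonic liver. They are 8 of 21884 protein-coding genes with a unique name in GENCODE M21, and all 8 were found in it. A peak belonged to a locus when it overlapped the gene body or the 50 kb on either side of any of the gene's transcript starts by at least 1 bp. The peaks of both replicates were merged where they overlapped by at least 1 bp, and each merged stretch is called a region. This gave 181 regions at the 8 loci of 99252 regions in all. A region is shared when both replicates have a peak in it.

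DNase-seq cuts the DNA of isolated nuclei with DNase I and counts where the cuts fall, so that open chromatin gives peaks, and short stretches protected within a peak are read as footprints of bound protein. The data are 2 replicates of 1 group, liver of mouse embryos of 13.5 days, strain C57BL/6N,129, described as wild type and carrying the A85 yeast artificial chromosome in multiple copies. Both replicates have the same donor label and no sex was collected, whether embryos were pooled is not stated, and the labels do not say what DNA the artificial chromosome holds. With 1 group there is no comparison between conditions, and the spread between the replicates is the only error the design gives.

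The embryonic liver is the site where the first definitive red cells are made in large numbers, alongside hepatoblasts and other blood cells. During terminal maturation an erythroblast condenses and expels its nucleus, clears its organelles, ribosomes and most other proteins, and is left with haemoglobin and the enzymes of gas transport. GATA1, KLF1 and TAL1 are the transcription factors that drive this programme, binding GATA words, CACCC-type words and E-boxes.

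Peak values are the authors' own signal values, with a normalization that the sources used here do not give, and they are not divided by the width of the peak. Every value in a library was a whole multiple of one step, within 0.05 of a step for 100% of peaks, with steps of 0.0127 in replicate 1 and 0.00604 in replicate 2. The value of a region in a replicate is that of its highest peak there. Read as counts, these values at the 88 shared regions of the 8 loci were 39 to 1325 in replicate 1 and 52 to 2384 in replicate 2. The 95% Poisson intervals given with values come from these counts and cover counting error only. Over all 45831 shared regions the ratio of replicate 1 over replicate 2 had a median log2 of 0.19. Ratios below are centred on that median, and the middle 95% of them lay between -1.05 and 1.27.

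In whole tissue the number of cells of a type and the signal per cell cannot be told apart. Shared promoter regions, those within 1 kb of a transcript start, were found at 7 of 8 erythroid marker genes, the exception being Alas2. The counts were 3 of 8 for hepatoblast markers, 0 of 5 for macrophage markers, 1 of 5 for endothelial markers and 3 of 5 for neural markers. Over all protein-coding genes the share was 58.4%. Peaks numbered 76130 in replicate 1 and 73852 in replicate 2, and footprints numbered 151079 in replicate 1 and 230992 in replicate 2.

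At each of the 8 genes a shared region lay within 1 kb of one of the gene's own transcript starts, against 58.4% of all protein-coding genes. The highest promoter values of the 8 genes had a median of 4.52 in replicate 1 and 2.95 in replicate 2, while those of all 12774 genes with a shared promoter region had a median of 5.97 in replicate 1 and 5.05 in replicate 2. All 8 promoters were open in both replicates, and the medians of the 8 lay below those of all open promoters. Their order was not the same in both replicates: Tmcc2 stood highest in replicate 1 and Car2 in replicate 2, and Car1 stood lowest in both.

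Away from promoters the 8 genes differed more from one another. Distal shared regions, more than 1 kb from every protein-coding start and within 50 kb of a start of the gene, were found at 7 of the 8 genes, against 71.0% of all genes. They numbered 14 at Ube2o, 12 at Hemgn, 5 at Xpo7, 5 at Car2, 4 at Tmcc2, 3 at Trim58, 3 at Isg20 and 0 at Car1. The mean was 5.75 and the median 4.5, against a mean of 2.33 and a median of 2 over all genes. As many or more distal shared regions were found at 108 genes in the case of Ube2o and at 218 in the case of Hemgn. The count is not particular to these 8 genes: the marker lists had means of 8.0 distal shared regions for erythroid, 5.4 for neural, 2.6 for endothelial, 2.12 for hepatoblast and 1.8 for macrophage genes.

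**Figure D1:**
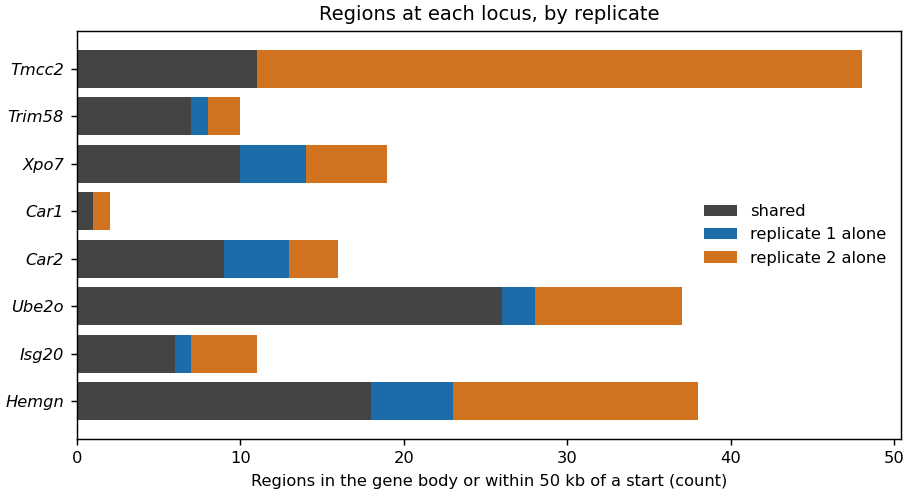
Regions in the gene body or within 50 kb of a transcript start of each gene, as counts of regions shared by both replicates, of replicate 1 alone and of replicate 2 alone. Tmcc2 has 37 regions of replicate 2 alone beside 11 shared ones, Ube2o has 26 shared regions, and Car1 has 2 regions in all.

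Of the 181 regions, 88 were shared, which is 48.6% (95% Wilson interval 41.4 to 55.9%) against 46.2% of all regions. Another 17 were found in replicate 1 alone and 76 in replicate 2 alone. Of all 99252 regions, 28168 were of replicate 1 alone and 25253 of replicate 2 alone. For their number of regions the 8 loci thus held fewer of the first kind and more of the second. Of those 76, 37 lay at the single locus of Tmcc2, and without that locus 57.9% of 133 regions were shared. Not all shared regions need belong to the gene at whose locus they lie: 40 of the 88 were nearest to a start of one of the 8 genes and 48 to a start of another gene.

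The shared regions comprised 42 within 1 kb of a protein-coding start, 20 in introns, 20 between genes and 6 in exons. Promoter regions made up 47.7%, against 43.6% of all shared regions, and intronic ones 22.7% against 22.7%. Intergenic ones made up 22.7% against 29.0%, and exonic ones 6.82% against 4.63%. Intronic ones had median values of 3.37 in replicate 1 and 1.85 in replicate 2, against 1.13 in replicate 1 and 0.863 in replicate 2 for all 10423 intronic shared regions. Intergenic ones had medians of 2.04 in replicate 1 and 1.54 in replicate 2, against 1.14 in replicate 1 and 0.936 in replicate 2 for all. Promoter regions at the 8 loci had medians of 2.70 in replicate 1 and 2.46 in replicate 2, against 2.62 in replicate 1 and 2.40 in replicate 2 for all promoter regions. The 6 exonic ones had medians of 1.57 in replicate 1 and 1.07 in replicate 2, against 1.28 in replicate 1 and 1.07 in replicate 2 for all. The larger excess over all regions was thus found in introns and between genes, as a description of these 2 libraries without a test.

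**Figure D2:**
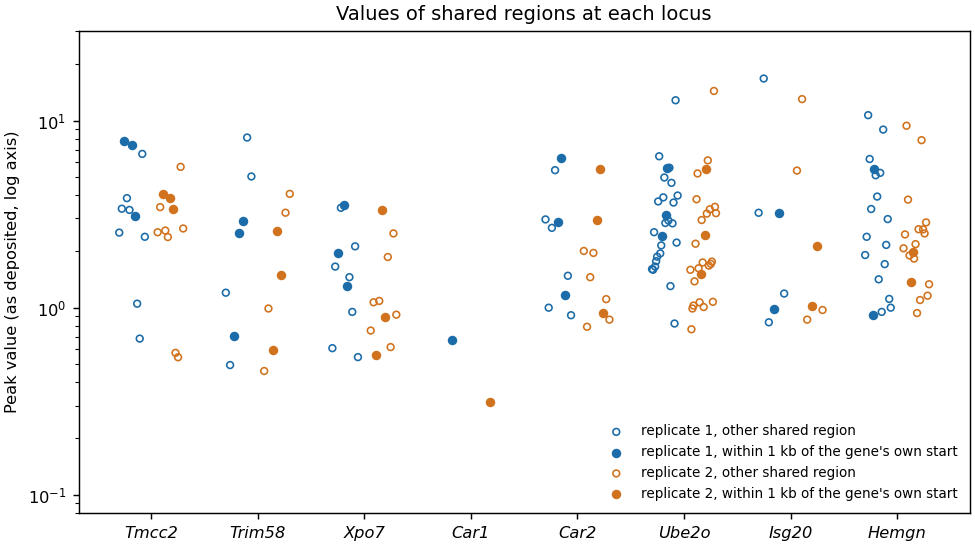
Peak value of every shared region at each locus, on a log axis, in replicate 1 and replicate 2; filled points lie within 1 kb of a start of the gene itself. At Trim58 the highest value of replicate 1, 8.11, lies in an intron above all its promoter points, and at Ube2o, Isg20 and Hemgn the highest points belong to promoters of neighbouring genes.

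Trim58 encodes a ubiquitin ligase that promotes the expulsion of the nucleus and, in mouse erythroblasts, acts on the motor protein dynein. The gene lies on the plus strand at chr11:58640465-58652404 and has 1 annotated start. Its highest region in replicate 1 was in an intron, 1236 bp from the start, with 8.11 in replicate 1 and 3.22 in replicate 2. Another intronic region, at 3036 bp, was the highest in replicate 2, with 5.02 in replicate 1 and 4.06 in replicate 2. Both exceeded the promoter regions, of which the region over the start had 2.49 in replicate 1 and 2.57 in replicate 2, and the one 636 bp inside the gene had 2.91 in replicate 1 and 1.50 in replicate 2.

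The other shared regions of the Trim58 locus were lower. Another promoter region, 225 bp upstream, had 0.709 in replicate 1 and 0.592 in replicate 2. An intergenic region 3562 bp upstream had 0.494 in replicate 1 and 0.990 in replicate 2, the lowest centred log2 ratio of all 88 shared regions, at -1.19. The only shared region nearest to another gene lay at the olfactory receptor Olfr324, with 1.20 in replicate 1 and 0.459 in replicate 2. Regions of 1 replicate alone were few: the highest of replicate 1 had 0.620 and that of replicate 2 had 0.682, and neither had an FDR listed in the other library.

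The intronic Trim58 region with the highest value of replicate 1 is shown from mm10, plus strand, chr11:58641701-58641980. Capitals mark E-box words (CAGCTG or CAGATG, or their complement CATCTG) and NFY words (CCAAT), searched on both strands. Here and below, a word counts as in a footprint when it lies within the footprint extended by 5 bp on either side. Of the 4 marked words, 3 lie in this way in a footprint found in both replicates near its left end, where they follow one another in 1 run of capitals. An E-box word is held by 32.5% of windows of the same length centred on all shared regions.
Trim58 intron: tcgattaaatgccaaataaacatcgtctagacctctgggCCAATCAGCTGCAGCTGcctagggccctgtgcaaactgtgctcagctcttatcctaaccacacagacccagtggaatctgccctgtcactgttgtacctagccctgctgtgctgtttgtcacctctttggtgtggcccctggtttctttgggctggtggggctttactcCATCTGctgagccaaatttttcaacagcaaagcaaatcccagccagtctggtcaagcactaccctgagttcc

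Xpo7 encodes an exportin, a carrier of cargo out of the nucleus, and it has been linked in mouse erythroblasts to the condensation and loss of the nucleus. The gene lies on the minus strand at chr14:70654246-70766628 with 6 annotated starts. Its 5′ promoter region had 3.53 in replicate 1 and 3.33 in replicate 2, with intervals of 3.13 to 3.97 in replicate 1 and 3.05 to 3.62 in replicate 2. The replicates were thus close at the 5′ start. They were not close at 2 regions further inside the gene.

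At an internal start of Xpo7, chr14:70707991-70708220, the value was 1.96 in replicate 1 and 0.561 in replicate 2, a centred log2 ratio of 1.62. In the intron 4866 bp from that start, chr14:70712901-70713320, it was 3.42 in replicate 1 and 1.09 in replicate 2, a ratio of 1.47. These were the highest ratios of the 88 shared regions. An intergenic region 30011 bp from Dok2, a neighbour that encodes a docking protein, had 0.544 in replicate 1 and 0.918 in replicate 2, and its ratio of -0.94 was the second lowest. The other 6 shared regions ranged from 0.608 to 2.13 in replicate 1 and from 0.616 to 2.49 in replicate 2.

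Of the Xpo7 regions seen in 1 replicate, the highest of replicate 1 was intronic, with 1.72, and had no FDR listed in replicate 2. The highest of replicate 2 had 1.31, was nearest to Fgf17, and had no FDR listed in replicate 1. The shared region at chr14:70682241-70682460 overlaps a coding exon of Xpo7 and had 1.66 in replicate 1 and 1.07 in replicate 2. It is shown because a footprint of both replicates in it holds a GATA word, in capitals, where a GATA word is AGATAA with its variants on either strand, which are TGATAA by its first letter, AGATAG by its last letter and TGATAG by both. Of windows of this length in all shared regions, 27.3% hold a GATA word. The sequence is from mm10, plus strand.
Xpo7 exon: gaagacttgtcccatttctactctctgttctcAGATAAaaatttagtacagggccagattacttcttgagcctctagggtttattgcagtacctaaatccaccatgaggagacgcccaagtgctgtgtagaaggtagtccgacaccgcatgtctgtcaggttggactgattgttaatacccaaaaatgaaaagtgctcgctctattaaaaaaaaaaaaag

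Hemgn encodes hemogen, a nuclear protein of blood precursor cells and a known target of GATA1. It lies on the minus strand at chr4:46393989-46413506 with 2 annotated starts. Its 2 shared promoter regions were both at the inner start. The one over that start had 5.52 in replicate 1, interval 5.01 to 6.06, and 1.97 in replicate 2, interval 1.77 to 2.20. The one 396 bp from it had 0.911 in replicate 1 and 1.38 in replicate 2, a centred log2 ratio of -0.78. The nearest shared region to the 5′ end of the gene was 1695 bp away. Intronic regions inside Hemgn had 5.10 in replicate 1 and 1.83 in replicate 2, 3.92 in replicate 1 and 2.19 in replicate 2, and 1.42 in replicate 1 and 0.936 in replicate 2.

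The region over the start and the first of these introns were among the regions past 2-fold between the replicates, with centred log2 ratios of 1.30 for the promoter and 1.29 for the intron, both higher in replicate 1. Of the 18 shared regions at the Hemgn locus, 13 were nearest to a start of another gene. Most of these were nearest to Trmo, a tRNA methyltransferase gene, or Anp32b, a histone chaperone gene. They include an exonic region inside the Hemgn body, with 3.37 in replicate 1 and 1.90 in replicate 2. The promoter region of Trmo had 10.7 in replicate 1 and 9.38 in replicate 2. The highest promoter region of Anp32b had 8.95 in replicate 1 and 7.85 in replicate 2. These neighbouring regions had a centred fold of 1.00 at both genes. The other shared promoter regions of Anp32b were relatively higher in replicate 2, with 1.71 in replicate 1 and 2.62 in replicate 2, a ratio of -0.80, and with 2.16 in replicate 1 and 2.49 in replicate 2, a ratio of -0.39.

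The highest distal region of the Hemgn locus, 1124 bp from Trmo, had 6.23 in replicate 1 and 3.78 in replicate 2. The 18 shared regions ranged from 0.911 to 10.7 in replicate 1 and from 0.936 to 9.38 in replicate 2. Among regions of 1 replicate, the highest of replicate 1 had 2.03 in an intron of Anp32b and the highest of replicate 2 had 2.28 beside the Anp32b promoter. Both had an FDR listed in the other library, 2.93e-05 in replicate 2 for the first and 9.34e-10 in replicate 1 for the second. Regions of this kind were counted apart although both libraries showed some enrichment there.

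An intergenic region upstream of Hemgn, nearest to Anp32b at 18102 bp, had 5.25 in replicate 1 and 2.63 in replicate 2. It is shown from mm10, plus strand, chr4:46432421-46432720, as the highest shared region of this locus with a GATA word in a footprint of both replicates. It holds 3 GATA words, in capitals, of which 1 lies in such a footprint. A GATA word is held by 34.2% of windows of this length in all shared regions.
Hemgn upstream: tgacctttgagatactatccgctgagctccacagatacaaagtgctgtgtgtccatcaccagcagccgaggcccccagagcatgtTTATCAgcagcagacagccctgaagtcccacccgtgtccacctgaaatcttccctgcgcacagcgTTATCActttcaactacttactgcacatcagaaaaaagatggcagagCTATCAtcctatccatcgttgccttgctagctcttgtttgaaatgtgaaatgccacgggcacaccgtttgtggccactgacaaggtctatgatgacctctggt

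Ube2o encodes a ubiquitin-conjugating enzyme that tags ribosomal and other proteins for removal in reticulocytes. It lies on the minus strand at chr11:116537740-116581447 with 3 annotated starts. Its 5′ promoter region had 5.54 in replicate 1, interval 5.04 to 6.09, and 5.51 in replicate 2, interval 5.15 to 5.87. A second promoter region, 187 bp inside the gene, had 3.11 in replicate 1 and 2.43 in replicate 2, and another, at an internal start, had 2.43 in replicate 1 and 1.52 in replicate 2. At the 5′ promoter the replicates were close, with a centred ratio of -0.18.

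Inside the first part of Ube2o, 3 intronic regions were found. The one at chr11:116572961-116573560 had 4.96 in replicate 1 and 1.74 in replicate 2, with a centred ratio of 1.32. The one at chr11:116580081-116580300 had 2.84 in replicate 1 and 1.01 in replicate 2, with a ratio of 1.30. The third, at chr11:116571961-116572180, had 3.89 in replicate 1 and 2.94 in replicate 2 and a ratio of 0.22. Introns of one gene thus differed in how far the replicates parted.

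Of the 26 shared regions at the Ube2o locus, 20 were nearest to other genes: Prpsap1, the sphingosine kinase gene Sphk1, Aanat, and Rhbdf2, which encodes an inactive rhomboid protein. The promoter of Rhbdf2 was the highest, with 12.8 in replicate 1 and 14.4 in replicate 2. An intergenic region at chr11:116506244-116506860 had 2.53 in replicate 1 and 0.990 in replicate 2, a ratio of 1.17. The 26 regions ranged from 0.823 to 12.8 in replicate 1 and from 0.767 to 14.4 in replicate 2. The highest region of replicate 1 alone had 1.23 and that of replicate 2 alone, at an internal start of Ube2o, had 1.48, and neither had an FDR listed in the other library.

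The Ube2o locus also held a distal region with a GATA word in a footprint of both replicates, in an intron of Rhbdf2, 3380 bp from a start of that gene. It had 3.65 in replicate 1 and 1.76 in replicate 2. The part shown is mm10, plus strand, chr11:116620179-116620478, with its 3 GATA words in capitals, of which 1 lies in the footprint.
Rhbdf2 intron at the Ube2o locus: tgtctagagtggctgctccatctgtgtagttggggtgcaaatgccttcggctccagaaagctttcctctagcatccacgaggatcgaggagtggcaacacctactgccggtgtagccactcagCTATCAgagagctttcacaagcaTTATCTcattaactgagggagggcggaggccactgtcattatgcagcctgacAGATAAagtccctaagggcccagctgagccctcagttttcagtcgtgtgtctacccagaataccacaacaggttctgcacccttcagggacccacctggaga

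Isg20 encodes an interferon-induced exonuclease that degrades RNA. It lies on the plus strand at chr7:78913424-78920396 with 6 annotated starts. Its promoter region had 3.19 in replicate 1, interval 2.81 to 3.61, and 2.14 in replicate 2, interval 1.92 to 2.37. A second promoter region 683 bp from a start had 0.987 in replicate 1 and 1.03 in replicate 2. A region 2480 bp upstream, outside the Isg20 body and in an exon of another gene, had 0.835 in replicate 1 and 0.863 in replicate 2. An intergenic region 10088 bp from a start of Isg20 had 1.19 in replicate 1 and 0.972 in replicate 2.

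The remaining shared regions of the Isg20 locus were nearest to Aen, the gene of a related apoptosis-enhancing nuclease. The Aen promoter had 16.8 in replicate 1 and 13.0 in replicate 2, the highest values at any of the 8 loci in replicate 1. The region 4914 bp from Aen had 3.21 in replicate 1 and 5.40 in replicate 2, with a centred ratio of -0.94. The region of replicate 1 alone had 0.582 and the highest of the 4 of replicate 2 alone had 0.477, with no FDR listed in the other library for either.

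No shared region of the Isg20 locus outside UTRs held a GATA word in a footprint of both replicates, so the highest with another word is shown, the region near Aen, mm10, plus strand, chr7:78890761-78890940. Capitals mark an ETS word (CCGGAA or its complement TTCCGG) and a CEBP word (TTGCNNAA), each in a footprint of both replicates. An ETS word is held by 9.74% of windows of this length.
Region near Aen at the Isg20 locus: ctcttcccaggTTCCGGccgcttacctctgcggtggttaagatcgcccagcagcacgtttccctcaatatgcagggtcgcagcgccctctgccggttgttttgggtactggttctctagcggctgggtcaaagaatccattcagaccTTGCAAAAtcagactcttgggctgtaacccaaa

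Car2 and Car1 encode cytosolic carbonic anhydrases, which interconvert CO2 and bicarbonate. Car2 lies on the plus strand at chr3:14886273-14900770 with 3 annotated starts. Its highest promoter region had 6.28 in replicate 1, interval 5.74 to 6.86, and 5.52 in replicate 2, interval 5.17 to 5.89. The adjoining region over the 5′ start had 2.87 in replicate 1 and 2.95 in replicate 2, and the last promoter region had 1.16 in replicate 1 and 0.942 in replicate 2. The Car2 promoter was the best matched of the 8, with a centred fold of 0.998 at its highest region.

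Upstream of Car2, 6973 bp from its start, an intergenic region had 5.43 in replicate 1 and 1.96 in replicate 2, a centred ratio of 1.28. The replicates thus matched at the promoter and parted at this upstream region. Inside the gene an exonic region had 1.48 in replicate 1 and 1.11 in replicate 2, and an intronic one had 0.911 in replicate 1 and 0.863 in replicate 2. The 3 regions nearest to the neighbouring carbonic anhydrase gene Car3 ranged from 1.00 to 2.96 in replicate 1 and from 0.791 to 2.01 in replicate 2. The highest region of replicate 1 alone had 1.59 and that of replicate 2 alone had 0.918, with no FDR listed in the other library for either.

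The upstream Car2 region is shown from mm10, plus strand, chr3:14879001-14879300. Its 2 GATA words are in capitals, and 1 of them lies in a footprint of both replicates.
Car2 upstream: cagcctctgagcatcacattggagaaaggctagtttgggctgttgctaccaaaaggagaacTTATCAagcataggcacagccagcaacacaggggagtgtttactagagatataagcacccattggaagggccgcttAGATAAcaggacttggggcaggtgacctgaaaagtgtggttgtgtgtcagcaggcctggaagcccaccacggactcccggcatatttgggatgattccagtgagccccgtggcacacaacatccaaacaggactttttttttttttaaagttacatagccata

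Car1 lies on the minus strand at chr3:14766216-14808368 with 3 annotated starts, and 1 shared region was found at its locus, over its 5′ end. It had 0.671 in replicate 1, interval 0.502 to 0.877, and 0.314 in replicate 2, interval 0.234 to 0.412. Among the highest promoter values of all genes with a shared promoter region these stand at percentile 8.48 in replicate 1 and 0.329 in replicate 2. A region of replicate 2 alone, in an intron, had 0.260 and no FDR listed in replicate 1. No footprint at Car1 was found in both replicates, and with the authors' shorter peak lists Car1 had no shared promoter region.

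Tmcc2 encodes a transmembrane and coiled-coil protein of the endoplasmic reticulum. It lies on the minus strand at chr1:132356315-132391281 with 6 annotated starts. The highest promoter region, at an internal start, had 7.77 in replicate 1, interval 7.17 to 8.41, and 4.04 in replicate 2, interval 3.74 to 4.36. The promoter region at the starts near the 5′ end had 7.37 in replicate 1 and 3.85 in replicate 2, and the one 340 bp upstream of the gene had 3.10 in replicate 1 and 3.37 in replicate 2. The 2 higher promoter regions had centred ratios of 0.75 and 0.75, short of 2-fold.

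Intronic shared regions of Tmcc2 had 3.85 in replicate 1 and 2.58 in replicate 2, and 3.33 in replicate 1 and 2.38 in replicate 2. A region just past the 3′ end had 3.38 in replicate 1 and 3.45 in replicate 2. The other 5 shared regions were nearest to Nuak2 and Dstyk, both protein kinase genes, and ranged from 0.683 to 6.63 in replicate 1 and from 0.543 to 5.66 in replicate 2. No region of replicate 1 alone was found at this locus.

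Within the Tmcc2 body, 36 regions were found in replicate 2 alone. Their values lay between 0.272 and 1.90 with a median of 0.552, below every shared region inside the gene, and stood on 45 to 314 counts. For 24 of them the lowest FDR in replicate 2 was under 0.001, with no like count made over all regions of replicate 2 alone. An FDR under 0.05 was listed in replicate 1 for 1 of the 36, against 9.84% of all regions of replicate 2 alone. The highest of the 36, near the 5′ end, had 1.90, interval 1.69 to 2.12, and the next, in an exon, had 1.53. Outside promoters there were 30 such regions within 50 kb of a Tmcc2 start, a number reached or passed by 52 of all 21884 genes, for which the mean was 1.38 and the median 0.

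**Figure D3:**
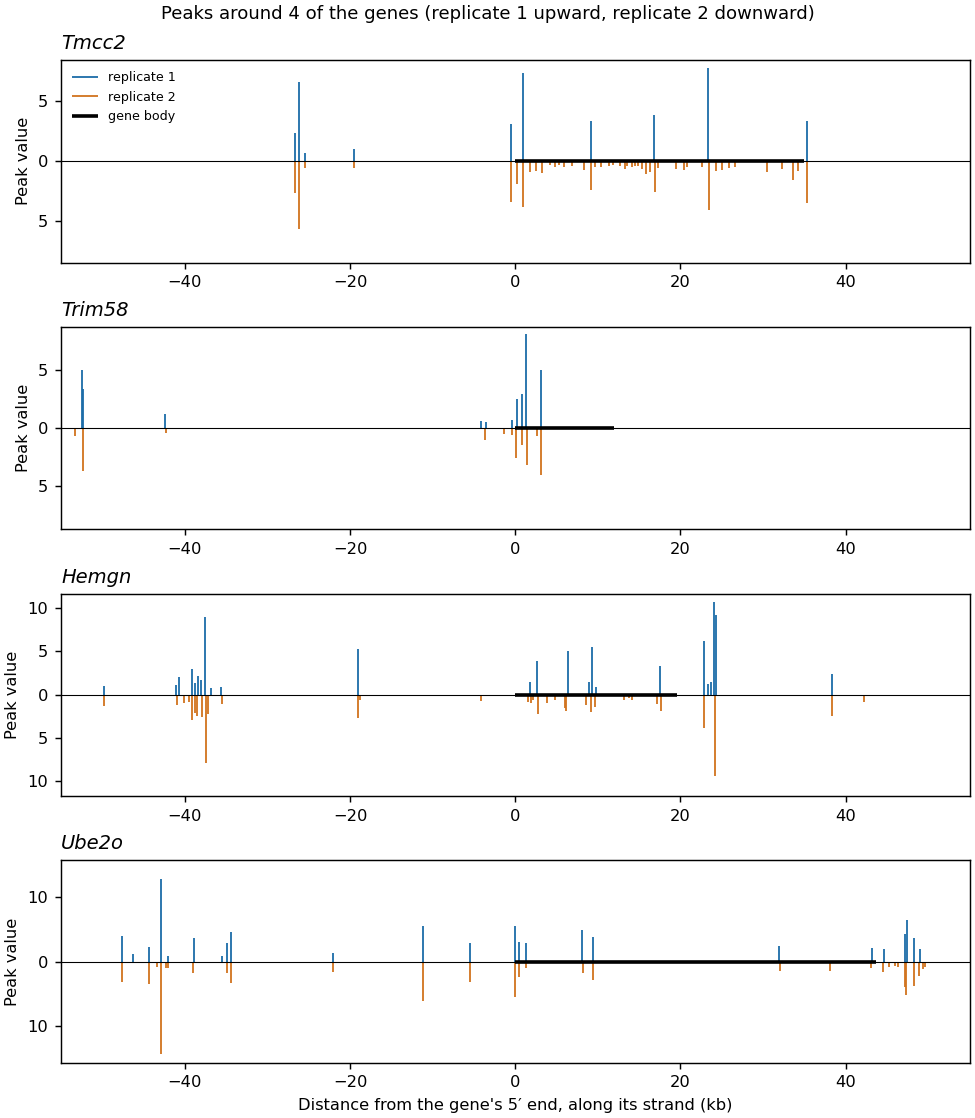
Peaks of replicate 1 (upward) and replicate 2 (downward) by distance from the 5′ end of Tmcc2, Trim58, Hemgn and Ube2o, with the peak value on the y axis; the black bar is the gene body. Low peaks of replicate 2, between 0.272 and 1.90, fill the body of Tmcc2 between the shared peaks, and the Trim58 peaks stand at the start of the gene.

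The same contrast appeared in the deposited FDR values, which are listed for bases under 0.05. In Tmcc2, 3.93% of the bases of the gene body were listed in replicate 1 and 46.3% in replicate 2. The next widest gap was at Hemgn, with 15.3% in replicate 1 and 32.4% in replicate 2. Trim58 had 18.4% in replicate 1 and 21.8% in replicate 2. Isg20 had 11.8% in replicate 1 and 15.2% in replicate 2. At these 4 genes replicate 2 had the larger share, and at Car2 it was replicate 1, with 14.1% in replicate 1 and 9.90% in replicate 2. Ube2o had 6.83% in replicate 1 and 8.63% in replicate 2. The lowest shares were at Xpo7, with 2.05% in replicate 1 and 1.61% in replicate 2, and at Car1, with 0.157% in replicate 1 and 0.149% in replicate 2. The median over all genes was 1.50% in replicate 1 and 1.58% in replicate 2, and the 90th percentile was 10.3% in replicate 1 and 13.1% in replicate 2. Trim58, Hemgn and Isg20 were above that percentile in both replicates, Car2 in replicate 1 and Tmcc2 in replicate 2.

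At the Tmcc2 introns where the libraries shared a region, the lowest FDR was 0.00015 in replicate 1 and 3.83e-21 in replicate 2 for the higher one, and 0.00273 in replicate 1 and 1.38e-38 in replicate 2 for the other. Replicate 1 had the higher peak values there and replicate 2 the lower FDR. The counting step of replicate 2 was smaller, and its part in these differences was not tested.

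**Figure D4:**
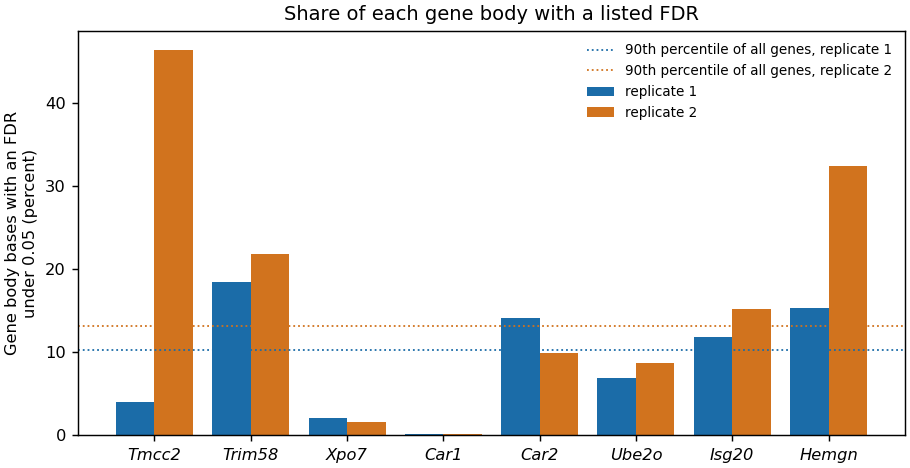
Share of the bases of each gene body, in percent, with an FDR under 0.05 listed in replicate 1 and in replicate 2; dotted lines give the 90th percentile over all protein-coding genes. Tmcc2 has 3.93% in replicate 1 and 46.3% in replicate 2, the widest gap of the 8 genes.

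An intronic part of Tmcc2 is shown from mm10, plus strand, chr1:132374321-132374620, within the higher of the shared intronic regions, because 2 KLF words lie at a footprint of both replicates there. Neither word lies wholly in the footprint of 15 bases itself, and both do once it is extended by 5 bp. A KLF word is CCNCNCCC on either strand, overlaps some SP words, and is in capitals. GATA words in this stretch lie outside the footprints of both replicates and are not marked. It is held by 49.6% of windows of this length.
Tmcc2 intron: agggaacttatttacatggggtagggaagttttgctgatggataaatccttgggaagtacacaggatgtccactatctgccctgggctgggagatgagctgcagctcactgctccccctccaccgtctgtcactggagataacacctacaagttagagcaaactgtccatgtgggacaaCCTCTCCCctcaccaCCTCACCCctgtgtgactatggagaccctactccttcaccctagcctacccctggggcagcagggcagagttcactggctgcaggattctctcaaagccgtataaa

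Over the 88 shared regions the centred log2 ratio of replicate 1 over replicate 2 had a median of 0.12, and 52 were above 0. Past 2-fold were 10 regions higher in replicate 1, which is 11.4% against 5.64% of all shared regions, and 1 higher in replicate 2, which is 1.14% against 3.02%. Of the 10, 7 were distal and 8 were nearest to a start of one of the 8 genes. They lay at Trim58, Xpo7, Hemgn, Ube2o and Car2, and none at Tmcc2, Isg20 or Car1. Intronic shared regions at the 8 loci had a median ratio of 0.34, against 0.13 for all intronic regions, while promoter regions had -0.0014 against -0.06 for all promoter regions.

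**Figure D5:**
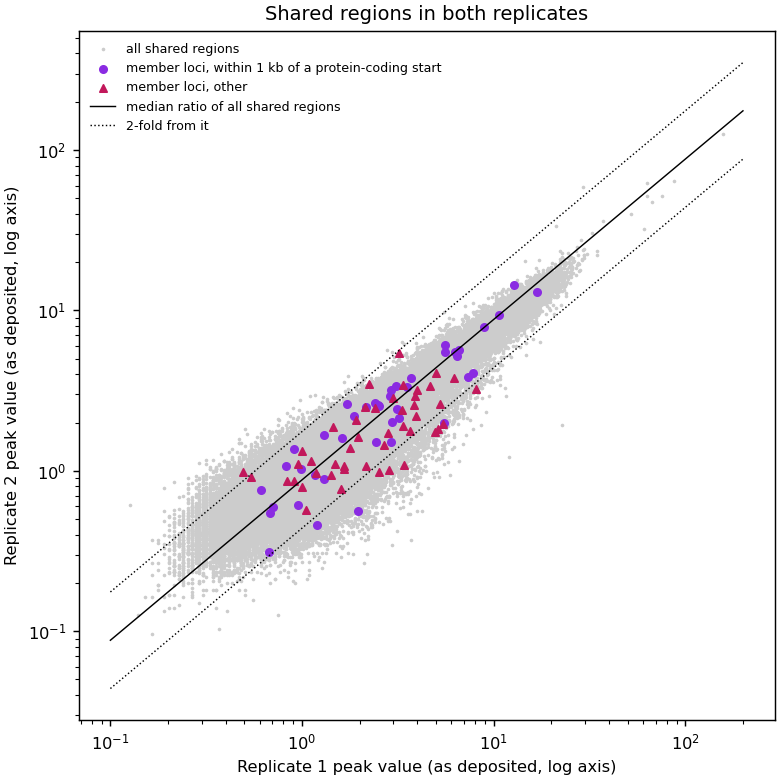
Peak value in replicate 1 (x axis) and replicate 2 (y axis) of all 45831 shared regions in grey and of the 88 at the 8 loci in colour, on log axes; the solid line is the median ratio and the dotted lines lie 2-fold from it. Of the coloured points 10 lie past 2-fold on the side of replicate 1 and 1 on the side of replicate 2.

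Regions of 1 replicate alone at the 8 loci had higher median values than all such regions, and lower ones than the shared regions of the same loci. The 17 of replicate 1 ranged from 0.519 to 2.03 with a median of 1.23, against 0.494 for all regions of replicate 1 alone. Of the 17, 4 (23.5%) had an FDR under 0.05 listed in replicate 2, against 13.3% of all such regions. The 76 of replicate 2 ranged from 0.169 to 2.28 with a median of 0.667, against 0.392 for all regions of replicate 2 alone. Of the 76, 3 (3.95%) had one listed in replicate 1, against 9.84% of all. By place, 36 of the 76 were in introns and 22 near protein-coding starts. These counts depend strongly on 1 gene, since 37 of the 76 (48.7%) lay at the Tmcc2 locus. No share by place over all regions of 1 replicate alone is set beside the counts by place, so they describe these loci only. Of the 17 in replicate 1, 7 were intergenic and 6 near protein-coding starts.

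Footprints at the 8 loci numbered 277 in replicate 1 and 573 in replicate 2. Of these, 55.6% in replicate 1 and 26.7% in replicate 2 overlapped one of the other replicate, against 56.8% and 35.6% of all footprints. At Tmcc2, 166 footprints were listed in replicate 2, of which 12.7% overlapped one of the 38 in replicate 1, and 90 lay in its regions of replicate 2 alone. Merged footprints of both replicates inside shared regions numbered 139: 44 at Ube2o, 26 at Hemgn, 21 at Tmcc2, 15 at Isg20, 14 at Xpo7, 10 at Trim58, 9 at Car2 and 0 at Car1. They lay in 62 of the 88 shared regions, which is 70.5%, against 66.4% of all.

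Of the 139 footprints, extended by 5 bp on either side, 7 held a GATA word, which is 5.04% (95% Wilson interval 2.46 to 10.03%) against 3.01% of all. These 7 were 2 at Hemgn and 1 each at Tmcc2, Xpo7, Car2, Ube2o and Isg20. Those at Tmcc2 and Isg20 were in promoter regions that are not shown, and the Isg20 promoter region overlaps a UTR. KLF words were in 15.8% against 19.2% of all, SP words (GGGCGG) in 10.1% against 18.2%, and E-box words in 4.32% against 3.35%. The CTCF core consensus was in 6.47% against 4.59%. The interval of the GATA share includes the value for all footprints.

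Words were also counted over whole regions. A GATA word was found in 27 of the 46 distal shared regions at the 8 loci, which is 58.7% (interval 44.3 to 71.7%), against 38.0% of all distal shared regions. At promoters it was in 15 of 42, which is 35.7%, against 20.2%. NFY words were in 45.7% of the distal regions against 25.0%, E-box words in 45.7% against 35.2%, and KLF words in 30.4% against 32.9%. Some shares in promoter regions at the 8 loci lay below those in all promoter regions, again without a test. KLF words were in 52.4% against 67.6%, SP words in 40.5% against 61.8%, and ETS words in 4.76% against 24.1%. NFY words were in 35.7% of them against 33.7%, and E-box words in 38.1% against 28.5%. Not all 14 words searched are given here. Among the others, NFE2 words (TGANTCA) were in 17.4% of the distal regions against 8.77%. The CTCF core consensus was in 7.14% of the promoter regions against 2.08%, and in 13.0% of the distal regions against 14.8%. The distal regions at the 8 loci were somewhat wider, with a median of 220 bases against 200 for all, and the part of width in these shares was not tested. Per kb, GATA words were fewer inside footprints of both replicates than outside them, at 1.88 inside and 2.46 outside at the 8 loci, and at 1.12 inside and 1.66 outside in all shared regions. KLF words were denser inside, at 7.76 inside and 2.33 outside at the 8 loci, and at 9.33 inside and 3.12 outside in all shared regions. Word matches describe letters, and no binding was measured.

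Of 22 other genes of terminal maturation, all 22 had a shared promoter region, against 58.4% of all protein-coding genes. The mean number of distal shared regions was 4.27, against 2.33 over all genes. The highest promoter value was at Ube2h, which encodes the ubiquitin-conjugating enzyme that works with the Maea complex, with 22.2 in replicate 1 and 20.8 in replicate 2. Ulk1, the autophagy kinase gene, had 21.2 in replicate 1 and 16.2 in replicate 2, and Diaph3, a formin gene, had 18.8 in replicate 1 and 14.2 in replicate 2. Bnip3l, which directs the clearance of mitochondria, had 17.9 in replicate 1 and 13.1 in replicate 2. Alox15, a lipoxygenase gene, was lowest, with 0.633 in replicate 1 and 0.483 in replicate 2. Distal shared regions were most numerous at the cell cycle regulator gene E2f2, with 11, and at the transcription factor gene Foxo3, with 10.

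Of 18 genes related to the 8 by family, 17 had a shared promoter region, the exception being Car4, against 58.4% of all genes. Their mean number of distal shared regions was 2.61, near the 2.33 over all genes. Tmcc1 had a promoter value of 16.8 in replicate 1 and 13.1 in replicate 2, above that of Tmcc2, and Tmcc3 had 1.06 in replicate 1 and 1.27 in replicate 2, below it. Car13 had 5.51 in replicate 1 and 4.99 in replicate 2, near Car2, while Car12 had 0.975 in replicate 1 and 0.724 in replicate 2, nearer to Car1. These values are for regions and not per length.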

How the data were processed

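DNase-seq of 2 liver replicates was used as deposited for mm10. Per the labels, peaks and FDR values were derived by the authors from each library's filtered alignment, and footprints from alignment and FDR; the sources used here name no aligner or caller. The deposited peak signal has a normalization that is not stated, and the deposited FDR holds adjusted p-values under 0.05. Sequencing depth is not given in the files; precision is set by the counts per region, taken as value over step. The longer peak lists were used. The genome was GRCm38.p6 (RefSeq) with GENCODE M21. Work was done in python 3.11.15 with numpy 2.4.6, pandas 2.3.3, scipy 1.17.1 and pysam 0.24.0, and was tested on simulated data. All 8 genes were named with their highest shared promoter and distal region, the highest region of each replicate alone, and the extremes of the ratio. In the sequence, 14 words were searched. Members and lists were chosen with earlier results of these data known. No test was made, since there is 1 group. Alternatives were the shorter lists, a stricter overlap, other windows, only 5′ ends as starts, summed peak values, other footprint extensions and each replicate alone.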

Additional observations from a re-analysis of the deposited data

How the results depend on the processing

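No paired analysis was possible because there is 1 group. Of 55 values under alternatives, 43 stayed within a set range and 12 moved. That range was within 1.5 times for counts and the mean, and within the 95% interval for shares and the median ratio. Regions of replicate 1 alone (17) numbered 35 when peaks had to overlap by at least 50% of each, 11 with a window of 20 kb and 34 with one of 100 kb. Regions of replicate 2 alone (76) numbered 47 with the shorter peak lists. Without the Tmcc2 locus, an alternative chosen after seeing the data, they numbered 39. The share of regions that were shared (48.6%) was 35.2% at 50% overlap and 57.9% without the Tmcc2 locus. The mean number of distal regions per gene (5.75) was 3.5 with the shorter lists and 3.63 with a 20 kb window, and in single libraries it ranged from 7.38 to 12.8. Footprints (139) ranged from 257 to 490 when each replicate was used alone, where no match in the other library is asked for. The cause of the other changes was not tested. Shared regions ranged from 59 to 117, and all 8 genes kept a shared promoter region except Car1 with the shorter lists and Hemgn when only the 5′ end was a start. Precision is lowest for the regions with the fewest counts, 39 in replicate 1 and 28 in replicate 2.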
